A study of Mus musculus with 4 samples.

Results

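The 10 imprinted mouse genes Peg3, Usp29, Zim1, Snrpn, Ndn, Magel2, Peg10, Sgce, Grb10 and Mest were examined in liver. Their cytosines were those of CpG dinucleotides read at least 10 times in each of 4 mice (CpG10) and lying within 3 kb of any RefSeq transcription start site (TSS) of a listed gene on mm10. This gave 317 of the 1276684 CpG10 cytosines common to the mice, and all 10 genes had at least 5. Methylation was measured by enhanced reduced representation bisulfite sequencing (ERRBS), in which DNA is cut with restriction enzymes (MspI, which cuts at CCGG, and TaqαI in the enhanced form), converted with bisulfite and read from the fragment ends. The livers came from 4 male mice aged 6 to 8 weeks, with no treatment or genetic change named. Mixed-1 and Mixed-2 were of an undefined background that includes C57BL/6J among its strains, and B6-1 and B6-2 were C57BL/6. The strains were housed at different institutions, and the B6 libraries were deeper, with 91886997 and 99215153 reads summed over cytosines against 60654199 and 65176203, so strain, housing and depth cannot be told apart. Whole liver holds several cell types, and their shares were not measured. The level of a cytosine is the percent of its reads that stayed C, which counts 5-methylcytosine and 5-hydroxymethylcytosine together.

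An imprinted gene is expressed mainly from the copy inherited from one parent. In each imprinted domain a control region is methylated on the maternal or the paternal copy in the germ line, and this mark is kept in the tissues of the offspring, so that reads from both copies together give an intermediate level. ERRBS reads were not assigned to a parent here, and a level near 50% can come from one methylated copy or from any other mixture of methylated and unmethylated molecules.

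Stretches from the start regions described below are shown first, on the plus strand of mm10, with the CpGs that held a common cytosine in capitals. They are examples and hold part of each gene's cytosines, 2 of 9 at the main Snrpn start, 4 of 12 at Peg10 and Sgce, and 15 of 37 at Magel2, where the printed stretch averaged 23.5%. The Snrpn, Peg10 and Grb10 second-start stretches and the Grb10 CpG repeat each hold a cytosine that was short of reads in the mixed mice. The first Grb10 start is shown as the unmethylated counterpart of the second.
Peg3 and Usp29, chr7:6730279-6730301: CGcacacacccCGaccagggtCG
Snrpn, chr7:60005199-60005229: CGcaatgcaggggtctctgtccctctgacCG
Peg10 and Sgce, chr6:4747460-4747485: CGcctaggtctgctgCGCGggctgCG
Mest, second start, chr6:30739254-30739334: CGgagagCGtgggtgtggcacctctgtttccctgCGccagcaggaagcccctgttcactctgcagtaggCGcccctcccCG
Grb10 second start, chr11:12026185-12026345: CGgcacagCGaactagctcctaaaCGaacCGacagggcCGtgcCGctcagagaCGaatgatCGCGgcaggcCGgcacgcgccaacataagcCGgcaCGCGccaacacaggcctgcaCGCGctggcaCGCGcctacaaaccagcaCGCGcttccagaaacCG
Grb10 CpG repeat, chr11:12026384-12026469: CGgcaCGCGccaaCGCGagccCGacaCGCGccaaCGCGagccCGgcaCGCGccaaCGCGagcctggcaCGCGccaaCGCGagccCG
Grb10 first start, chr11:12037436-12037636: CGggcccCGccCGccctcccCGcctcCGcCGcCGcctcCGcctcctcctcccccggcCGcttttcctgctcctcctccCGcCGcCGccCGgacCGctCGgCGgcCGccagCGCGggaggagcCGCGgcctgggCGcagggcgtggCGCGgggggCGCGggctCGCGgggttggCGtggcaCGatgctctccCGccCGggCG
Magel2, chr7:62377354-62377459: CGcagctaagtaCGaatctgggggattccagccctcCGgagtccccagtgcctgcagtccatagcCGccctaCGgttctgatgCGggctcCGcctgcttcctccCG

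Across the 317 cytosines, 118 (37.2%) had a mean level of 35% to 65% over the mice, against 4.33% of all common cytosines. A further 156 were below 20% (hypomethylated) and 8 above 80% (hypermethylated). Grb10 alone held 221 of the 317, 71 of the 118 and 137 of the 156, so these shares are weighted to it. The genes had 19 start regions, each made of TSSs at most 1000 bp apart, of which 12 held at least 5 cytosines, 2 held fewer and 5 held none. Of the 12, 5 were near 50 (35% to 65% in every mouse), 2 were near 0 (below 20% in every mouse), none was near 100 (above 80% in every mouse) and 5 lay between. Of all 23809 RefSeq start regions with enough cytosines, 4.77% were near 50, 73.9% near 0 and 7.69% near 100. By gene, 5 of the 10 (Peg3, Usp29, Snrpn, Magel2 and Mest) had a start region near 50, where 5.32% of all genes tested did. Peg3 and Usp29 share all their cytosines but are counted separately here, as are Peg10 and Sgce. This count depended on its bounds, being 1 gene with 40% to 60%, 7 with 30% to 70%, and 3 with windows of 1 kb.

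**Figure D1:**
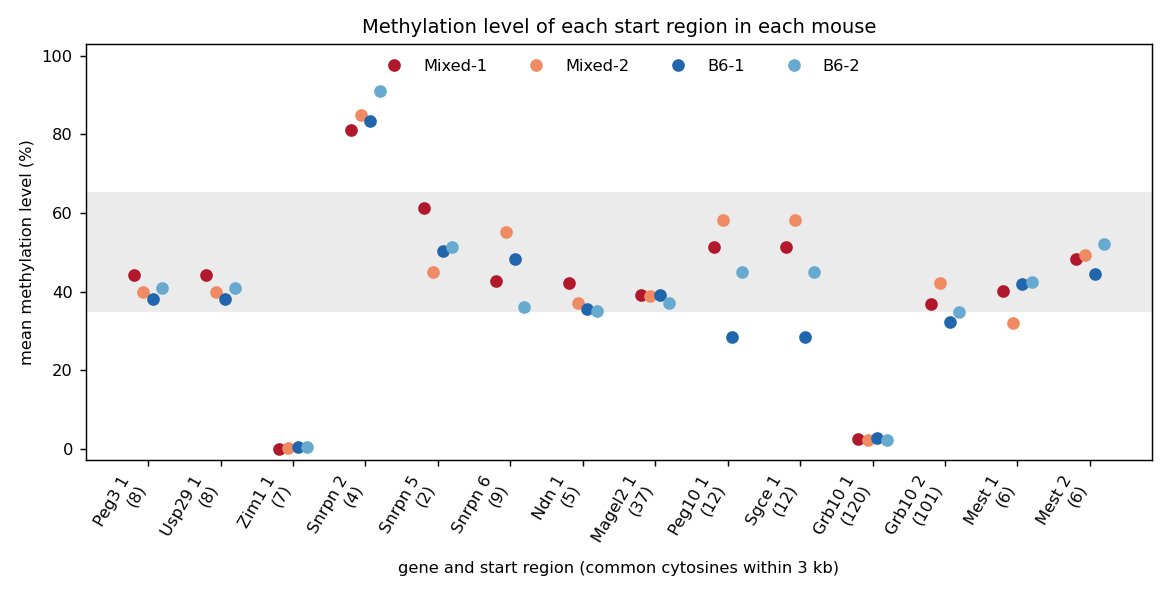
Mean methylation level (%) of each start region with any common cytosine (x axis, number of cytosines in brackets) in each of the 4 mice (points), with 35% to 65% shaded. Zim1 and the first Grb10 start lie near 0, the second Snrpn start region above 80, and most of the rest in or near the shaded band, where B6-1 falls to 28.5% at Peg10 and Sgce.

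**Figure D2:**
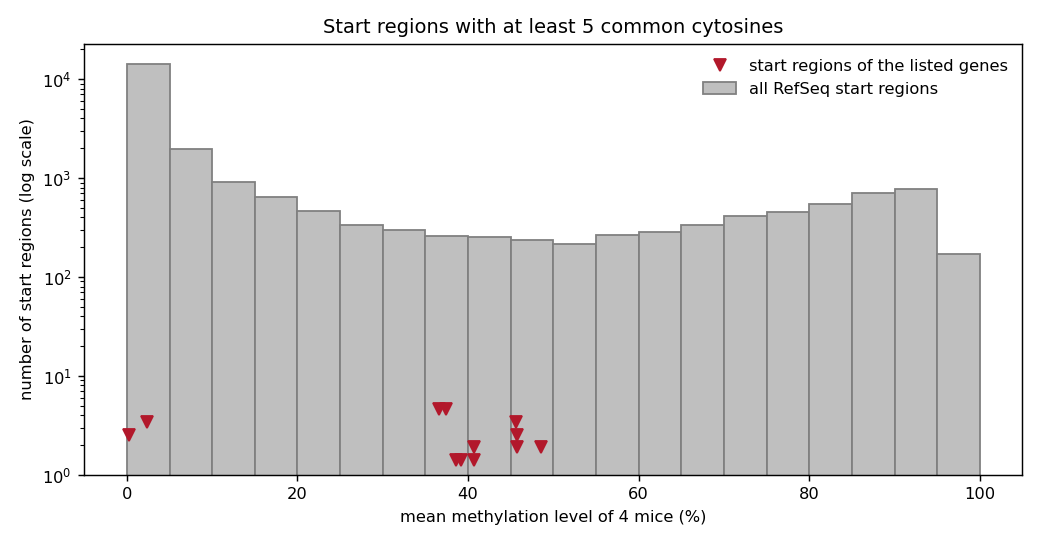
Mean level over the 4 mice (x axis, %) of all 23809 start regions with at least 5 common cytosines, as the number per bin on a log scale (grey bars), with the 12 start regions of the listed genes as red triangles, whose height carries no value. The listed regions fall at 2.39% or below or between 36.5% and 48.6%.

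Peg3, a zinc finger gene expressed from the paternal copy, starts 97 bp from Usp29, a gene of the ubiquitin protease family transcribed the other way, and both windows held the same 8 cytosines. The level was 44.1% and 39.8% in the mixed mice (Mixed-1 first, here and below) and 38.1% and 40.9% in the B6 mice (mean 40.7% ± 2.53, SD, n = 4). All 8 cytosines lay in the UTR of Peg3 at 91 to 157 bp from its start, and their means spanned only 39.8% to 43.9%. They came from 2 read ends, 1 per strand (placed by the nearest CCGG), at 41.2% and 40.3%, and cytosines of 1 read end are read from the same molecules and are not independent. Zim1, a zinc finger gene of the same domain expressed from the maternal copy, was unmethylated at its 7 cytosines. Its level was 0% and 0.260% in the mixed mice and 0.317% and 0.359% in the B6 mice. In Mixed-1 no read was methylated at any of the 7. They lay on 2 read ends, whose least-read cytosines held 131 reads together, and 0 of 131 allows a level of up to 2.29%, counting error only.

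Snrpn encodes a splicing protein and lies, with Ndn and Magel2, in the domain that corresponds to the human Prader-Willi region. Over all 15 cytosines its level was 55.4% and 61.8% in the mixed mice and 58.0% and 52.7% in the B6 mice (mean 57.0% ± 3.89, SD, n = 4). Of its 6 start regions, the main one (9 cytosines) was at 42.7% and 55.3% in the mixed mice and 48.3% and 36.1% in the B6 mice (mean 45.6% ± 8.18, SD, n = 4). The mice differed most at 1 read end 106 to 146 bp downstream of the start, with 39.2%, 83.3%, 56.8% and 37.1%. The median coverage there was only 14 in Mixed-2 and 25 in Mixed-1, so that the highest value rested on the fewest reads. At the read end that spans the start, the levels were 53.5%, 41.4%, 39.3% and 39.8%. That end includes the cytosine at 60005200, which was short of reads in the mixed mice (below). Its other 2 cytosines averaged 45.9%, 36.5%, 39.8% and 40.7%. Farther upstream, 4 cytosines of another start region, within introns of Snrpn and Snhg14, were higher at 81.1%, 85.0%, 83.5% and 90.9%, and 2 of a further region were at 52.0% ± 6.75 (SD, n = 4).

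Ndn, which encodes the MAGE family protein necdin, had 5 cytosines, at 42.2% and 37.2% in the mixed mice and 35.5% and 34.9% in the B6 mice. This mean joined 4 cytosines in the coding exon, 362 to 402 bp from the start, at 27.2% ± 4.57 (SD, n = 4) with 1 cytosine at 2939 bp, at 78.4% ± 9.26 (SD, n = 4). The coding cytosines were read as few as 11 times in a mouse. Magel2, another MAGE family gene, had 37 cytosines and 39.2%, 38.9%, 39.2% and 37.1%. The 4 mice lay close together (SD 1.01 percentage points), yet only 7 of the 37 cytosines were themselves at 35% to 65%. The level was higher farther from the start, from 22.9% ± 0.738 (SD, n = 4) over 24 cytosines in the first 500 bp to 58.2% ± 0.800 over 9 cytosines at 500 to 999 bp and 95.1% ± 2.67 over 2 cytosines at 1000 to 1499 bp. Beyond that, 1 cytosine at 1500 to 1999 bp was at 83.6% ± 14.4 and 1 at 2000 to 2499 bp at 80.9% ± 2.99. The Magel2 start region was thus near 50 as an average of low and high cytosines along the UTR and coding exon and not at most of its single cytosines.

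Peg10, derived from a retrotransposon and expressed from the paternal copy, starts 102 bp from Sgce, which encodes epsilon-sarcoglycan, and both windows held the same 12 cytosines. Their level was 51.4% and 58.1% in the mixed mice and 28.5% and 45.0% in the B6 mice (mean 45.8% ± 12.7, SD, n = 4), the widest spread between mice among the 10 genes. All 12 lay in the UTR of Peg10 at 49 to 184 bp, on 2 read ends. On the plus-strand end the levels were 58.2%, 50.0%, 25.4% and 51.4%, so that B6-1 stood apart from the other mice. On the minus-strand end they were 46.6%, 63.9%, 30.7% and 40.4%, again with B6-1 lowest. That end includes the cytosine at 4747461, which was short of reads in the mixed mice (below). Its other 6 cytosines averaged 38.7%, 57.9%, 30.3% and 40.4%.

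**Figure D3:**
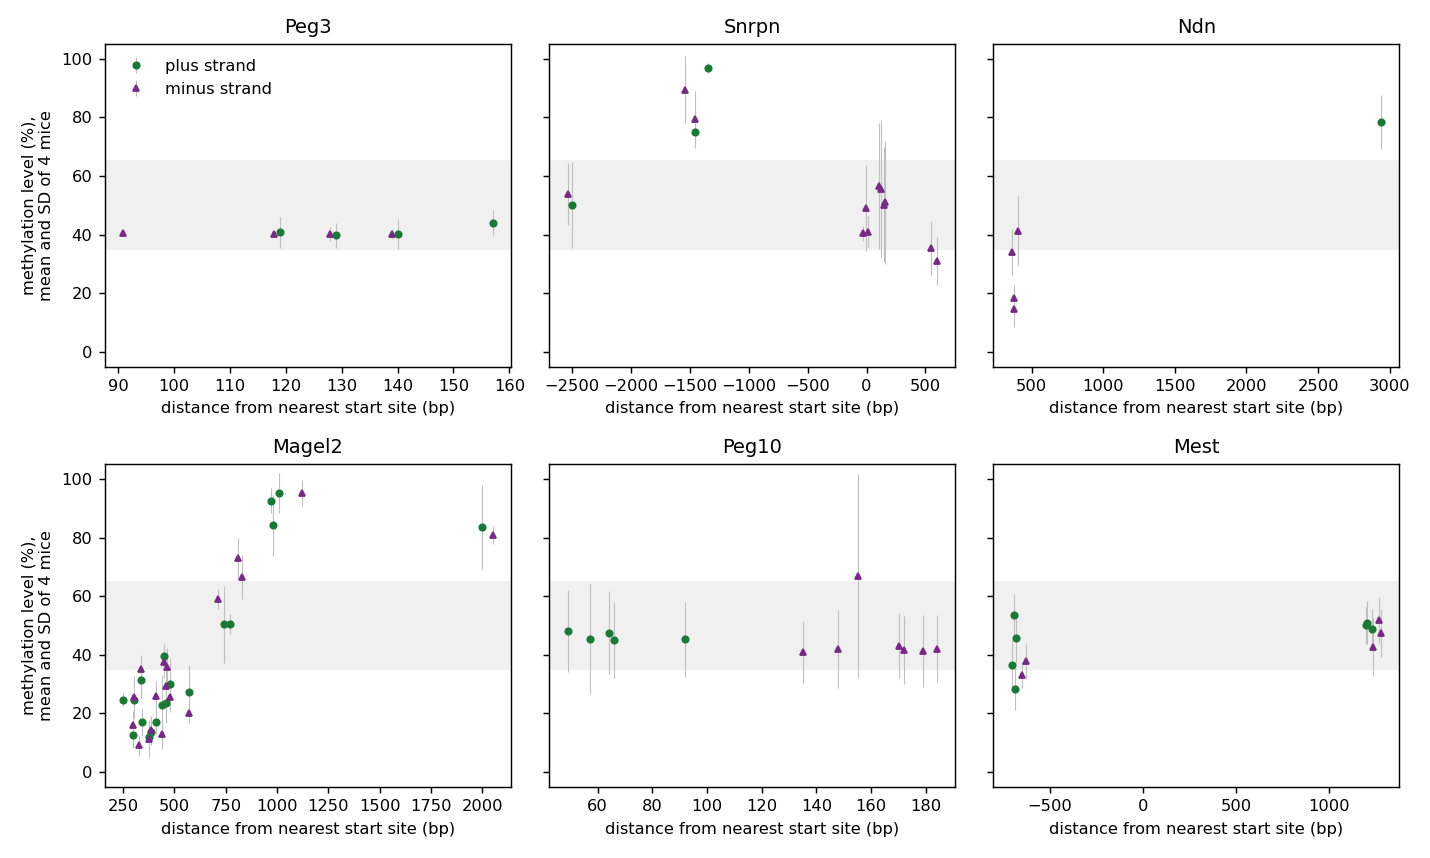
Methylation level (y axis, mean and SD of 4 mice) of each common cytosine against its distance from the nearest start site (x axis, bp) at 6 of the genes, with circles for the plus strand, triangles for the minus strand and 35% to 65% shaded. Usp29 and Sgce share the cytosines of Peg3 and Peg10, Zim1 is near 0 throughout, and Grb10 has its own plot. At Magel2 the level rises from 22.9% in the first 500 bp to above 80%, while at Peg3 all 8 cytosines lie between 39.8% and 43.9%.

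Mest, which encodes a protein of the hydrolase fold family and is expressed from the paternal copy, had 6 cytosines at each of 2 start regions. The first, upstream of the start and outside genes, was at 40.1% and 32.0% in the mixed mice and 42.0% and 42.5% in the B6 mice. The second, in an intron 1201 to 1281 bp downstream of the nearest start, was at 48.3%, 49.3%, 44.6% and 52.2%, with every cytosine between 42.6% and 51.8%. Only the second lay at 35% to 65% in every mouse.

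Grb10, an adaptor protein that binds growth factor receptors, held 221 of the 317 cytosines and differed sharply between its 2 start regions. The first start (120 cytosines) was unmethylated, at 2.52% and 2.19% in the mixed mice and 2.60% and 2.25% in the B6 mice. Of these cytosines, 117 were below 20%, and the 4 that lay 1000 bp or more upstream averaged 28.3% ± 4.09 (SD, n = 4). The second start (101 cytosines, all in an intron 1090 to 2343 bp downstream of it) was at 36.9%, 42.2%, 32.2% and 34.8%, and 70 of its cytosines were at 35% to 65%. Its mean was lowered by a repeat of CpGs, printed above, in which the strands disagreed. There the 19 plus-strand cytosines were at 6.18%, 15.8%, 14.1% and 19.9%, and the 19 minus-strand cytosines at 44.0%, 51.2%, 29.0% and 31.2%. The minus strand was higher in every mouse, with 16 to 29 reads per cytosine on the plus strand and 19 to 47 on the minus strand. In the rest of the region they were close, at 42.1% ± 6.21 on the plus strand and 43.5% ± 3.29 on the minus strand (SD, n = 4). The cause of the gap was not tested. Over the 60 CpGs of the 10 genes read on both strands, the median difference was 4.26 percentage points and the largest 34.6. Over the 35 of these with at least 1 strand at 35% to 65% the median was 20.8, in which the Grb10 repeat weighs heavily. CpGs of the repeat read on both strands differed by 20.8 to 34.6. Outside it the largest difference was 20.8, at 12026228, and the next was 17.2. The minus-strand cytosine of the CpG at 12026228, at 12026229, was short of reads in the mixed mice (below), at 81.5% and 77.8% of 27 reads each. In the B6 mice it was at 44.4% and 27.0%, and the plus strand at 34.7% and 37.2%. A further plus-strand cytosine, at 12025893, lay inside a CCGG site at the end of a fragment. There 0 of 53, 0 of 49, 0 of 32 and 1 of 32 reads were methylated. The 7 cytosines of the read end just before it, at 12025847 to 12025887, were at 36.5%, 41.7%, 26.4% and 35.6%. Their median reads were 54, 49, 34 and 33. Zero counts allow up to 5.66%, 6.12% and 9.38% in the first 3 mice, counting error only. Whether the reads at 12025893 reflect the liver DNA was not tested, so these limits apply to the reads only.

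**Figure D4:**
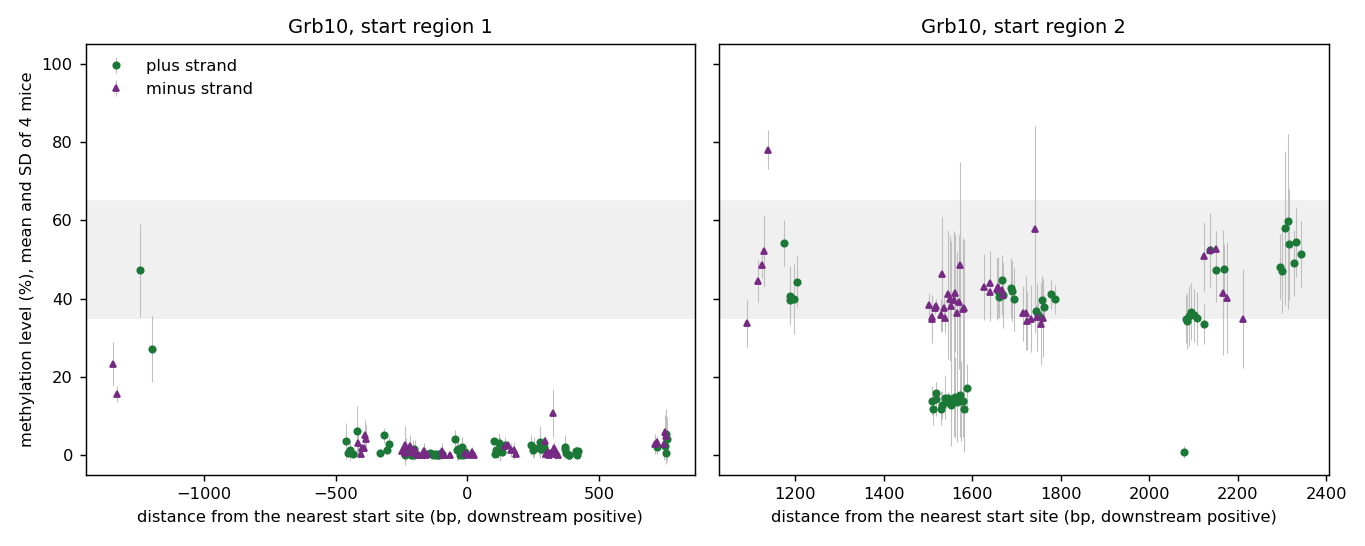
Methylation level (y axis, mean and SD of 4 mice) of each Grb10 cytosine against its distance from the nearest start site (x axis, bp), with the first start on the left, the second on the right, circles for the plus strand, triangles for the minus strand and 35% to 65% shaded. The first start averages 2.39%, and at the second the plus-strand cytosines of the CpG repeat average 14.0% below minus-strand cytosines at 38.9%.

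The question of the comparison of strains was whether methylation differs with genetic background and housing. With 2 mice against 2 there are 6 ways to assign the labels, and the two-sided exact permutation test cannot give a p below 0.333. Over all 317 cytosines the mixed mice were at 26.2% ± 1.24 and the B6 mice at 23.3% ± 0.739 (SD, n = 2), a difference of 2.85 percentage points (exact permutation p = 0.333). Grb10 holds 221 of these cytosines and weighs most in this mean. By gene, mixed minus B6 was 18.0 points at Peg10 and Sgce, 4.49 at Ndn, 3.26 at Snrpn, 2.71 at Grb10, 2.41 at Peg3 and Usp29, 0.907 at Magel2, -0.208 at Zim1 and -2.89 at Mest, and no exact p could pass 0.05 in this design. The sizes rested on single mice. The Peg10 difference was 9.77 points without B6-1 and 26.3 without B6-2. Without Mixed-1 it was 6.49 at Snrpn, 1.98 at Ndn, 0.258 at Peg3 and Usp29, and -0.0786 at Zim1. Without Mixed-2 it was 0.0368 at Snrpn, 7.005 at Ndn, 4.57 at Peg3 and Usp29, 1.60 at Grb10 and -0.338 at Zim1. Without B6-1 it was 5.90 at Snrpn, 0.9953 at Peg3 and Usp29, 1.96 at Magel2 and -4.91 at Mest. Without B6-2 it was 0.626 at Snrpn, 3.83 at Peg3 and Usp29, -0.144 at Magel2 and -0.880 at Mest.

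Cytosine by cytosine, a logistic model with limma-moderated overdispersion called 0 of the 317 between the strains at an adjusted p under 0.01 and a difference of 25 points, where it called 0.00697% of all common cytosines. At an unadjusted p under 0.05 there were 14, and 178 of the 317 were higher in the mixed mice. The shares of all common cytosines at these 2 bounds were not counted, so neither number is a result about the listed genes. Many of the 14 lay on 1 minus-strand read end of the Grb10 repeat and share molecules. Fisher's exact test on the pooled reads of each strain, which ignores the spread between mice, called 3 of the 317 and 0.126% of all common cytosines. The fit with the replicate number as a block called 1 of the 317 and 0.0273% of all. The 3 were a Peg10 cytosine (chromosome 6, 4747461, minus strand; limma-moderated adjusted p = 0.0805 in the model), and 2 of Grb10 (chromosome 11, 12026229 and 12026398, minus strand). The Peg10 cytosine, also the 1 called with the block, was at 93.8% of 16 and 100% of 19 reads in the mixed mice and at 33.3% of 87 and 40.6% of 96 reads in the B6 mice.

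That cytosine had fewer reads than its neighbours in both mixed mice. The other cytosines of the same read end had medians of 38 and 36 reads, of which 15 and 21 were methylated, so that methylated reads were about as many as at this cytosine (15 and 19) and unmethylated reads fewer (1 and 0 against 23.5 and 15). After these values were seen, all 284 member cytosines with at least 2 others on their read end were searched for coverage under 0.75 of the others' median in both mice of a strain. There were 7 in the mixed mice and 0 in the B6 mice. They were 5 of Grb10, 1 of Peg10 and 1 of Snrpn. The share of all common cytosines under this rule was not counted, so neither number is a result about the listed genes. At Grb10 12026229, 27 and 27 reads (22 and 21 methylated) stood against medians of 56 and 63 (21 and 20 methylated). At Snrpn 60005200, 45 and 43 reads (31 and 22 methylated) stood against 66.5 and 63. At Grb10 12037096, near the unmethylated first start, 22 and 22 reads (2 and 4 methylated) stood against 69.5 and 67.5. Grb10 12026398, also called by Fisher's exact test, did not meet the rule but had 27 and 35 reads in the mixed mice. The medians of its whole read end were 46 and 43 there. In the B6 mice it had 24 and 38 reads against 23.5 and 38.5. In the B6 mice the Peg10, Snrpn and 12026229 cytosines were read 0.946 to 1 times as often as their neighbours. Without the 7 cytosines, the Peg10 and Sgce difference was 14.2 points and that over all cytosines 2.45. The cause of the missing reads was not tested.

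**Figure D5:**
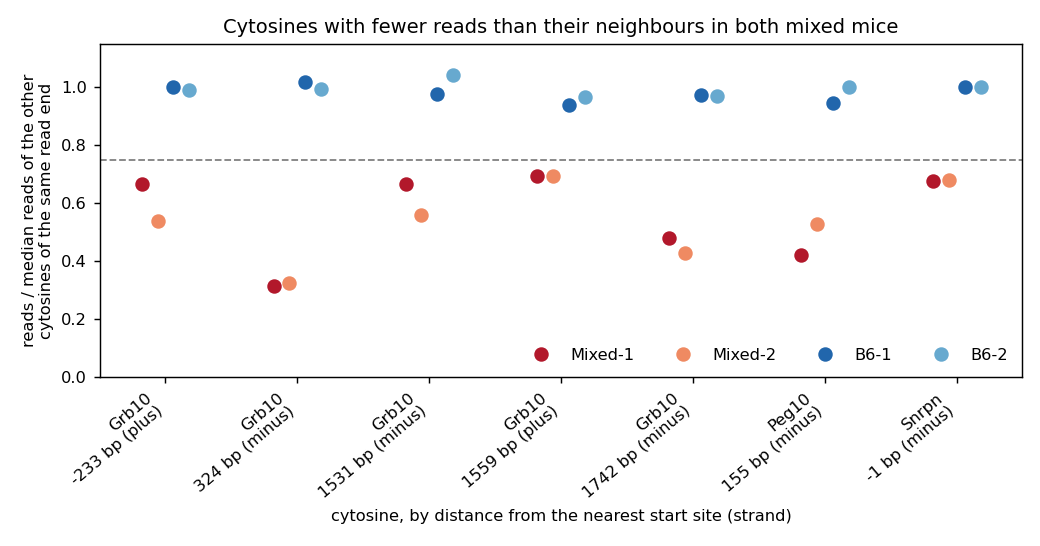
Reads at each of the 7 cytosines divided by the median reads of the other cytosines of its read end (y axis) in each mouse, by gene, distance from the nearest start site and strand (x axis), with the limit of 0.75 dashed. The cytosines were chosen for low values in both mixed mice, and all B6 values lie at 0.941 or above.

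Among the 118 cytosines at 35% to 65%, the median SD over mice was 8.11 percentage points at a median coverage of 62, and among the 55139 other common cytosines in that range it was 9.18 at a coverage of 47. The spread beyond counting error (Pearson dispersion around 1 level) had medians of 1.49 and 1.52. Under counting error alone the mean of this dispersion is about 1 and its median is lower. No test was made of these values.

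Of 25 neighbouring genes of the same domains, 18 had at least 5 common cytosines, and 11 of these were near 0 as genes, 2 near 50, 2 near 100 and 3 between. Those near 50 were Snurf, which shares the 9 cytosines of the main Snrpn start, and Ddc (45.5% ± 3.79, SD, n = 4), which encodes the enzyme aromatic L-amino acid decarboxylase and adjoins Grb10. The Ddc value averaged 5 cytosines of unlike level, of which 20% (1 cytosine) were at 35% to 65%, and none of its start regions held 5. Zim2, Apeg3, Ipw, Pon1, Pon3 and Tfpi2 had no common cytosine, and Zfp264 was not matched in the annotation. Of 12 other imprinted genes, chosen as most like the listed ones, 8 had a start region near 50, and the median gene level was 42.8%. Among 14094 genes with at least 20 cytosines outside these lists, the largest shares of cytosines at 35% to 65% were at Hymai (85.5%, sharing all 62 with Plagl1), Gnasas1 (85.0%, sharing all 40 with Gnas), Fut11 (81.4%), Adad1 (72.7%) and Impact (72.2%).

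The hexamer TGCCGC, known as the binding sequence of ZFP57, a zinc finger protein of imprinting control regions, was searched on both strands. It was present in 4 of 10 windows of 300 bp centred on the runs of intermediate cytosines (Peg3, Snrpn, 1 of 3 at Grb10, and the first Mest start, which was not near 50 in every mouse), against 11.6% of 32851 windows of the same length at gene starts. The windows of Peg10, Magel2, the second Mest start and the other 2 of Grb10 had no match. The letters ATGGCGGC, the core of the YY1 motif, were in 0 of the 10 and in 2.24% of starts. For both motifs, which each hold a CpG, the windows were matched to those at starts in length only and not in CpG content. Inside a TGCCGC match lay 9 member cytosines. Snrpn had 31.2% at 60004603 and 49.0% at 60005200, and Mest had 53.5% at 30732811. Grb10 had 36.4% at 12026249, 36.9% at 12026228 and 57.7% at 12026229, the other strand of the same CpG, and, near its first start, 1.92% at 12037168 and 0% at 12037395. Zim1 had 0% at 6696450. The values at 60005200 and 12026229 include the mixed mice, which were short of reads there.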

How the data were processed

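The authors digested liver DNA with restriction enzymes, sequenced 50-base single-end ERRBS reads and mapped them to mm10; their methods name BSMAP, and the submitters' processing notes name Bismark and SAMtools. The deposited tables give, per cytosine and strand, the coverage (a count of reads) and the percent of reads that were C (methylated) or T, and hold cytosines of at least 10 reads. Groups came from the labels.

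Here the tables of the 4 mice were joined on chromosome, base and strand, and RefSeq TSSs on GRCm38 (mm10) defined windows of 3 kb. Gene levels are means of cytosine percents per mouse. The strains were compared by exact permutation over mice. Methylated reads were recovered from coverage and percent, and strain was fitted per common cytosine in a logistic model in R 4.3.3, with overdispersion moderated by limma 3.58.1 and kept at 1 or above, an F test and Benjamini-Hochberg adjustment over all 1276684 cytosines. A first version, which estimated the prior overdispersion from all sites, missed nearly all changed sites in simulated data, so the prior was taken instead from sites with expected counts of at least 5. This departs from the planned design, and the prior from all sites is given as an alternative. Read ends were placed by CCGG sites alone, which left 4 of the 317 cytosines unplaced. Sequences were read from the RefSeq GRCm38 genome, and sequence windows and the search for cytosines short of reads were chosen after values were seen. The genes and lists were chosen with earlier results of these data known. Genes were named by rule: the 10 listed, neighbours near 50 or without common cytosines, the 5 most alike by share of cytosines at 35% to 65%, and cytosines called between strains. PCR reads carried no molecular identifiers, so limits cover counting error only.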

Additional observations from a re-analysis of the deposited data

How the results depend on the processing

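The direction of the difference over all cytosines held in every alternative run (1.46 to 3.73 points), and each mouse left out gave 1.97 to 3.73. The number of genes with a start region near 50 was 3 with windows of 1 kb, 1 with 40% to 60%, 4 at coverage of at least 20 (without Snrpn), 7 with reads pooled over sites (with Ndn and Grb10), and 5 to 7 with a mouse left out. Ndn had no value at coverage of at least 20. Windows of 1 kb gave levels of 45.6% at Snrpn (57.0% with 3 kb), 27.2% at Ndn, 32.5% at Magel2, little methylation at Grb10 (1.496%), whose second-start cytosines all lie beyond 1 kb, and 39.1% at Mest, and a Grb10 strain difference of -0.150 points. Reads pooled over sites gave 43.0% at Ndn and 36.4% at Magel2, with strain differences of -0.0656 and -1.54 points. Strands merged gave 45.0% at Magel2. All sites of each mouse gave 32.0% at Ndn and 40.8% at Magel2, with differences of 15.4 points at Ndn, 8.63 at Snrpn and -1.08 at Magel2. Snrpn differed by 0.136 points at coverage of at least 20 and by 6.79 with 1 kb, and Mest by -6.22 with 1 kb. With a mouse left out, the Magel2 difference ran from -0.144 to 1.96. The cause of these changes was not tested beyond the construction of the 1 kb window.

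Cytosines called between the strains were 3 by Fisher's exact test on pooled reads (0.126% of all common cytosines), 1 with the replicate block (0.0273%) and 0 in the other settings. The prior from all sites, which was the planned form, gave 25 at an unadjusted p under 0.05, against 14 with the prior from sites with expected counts of at least 5, which was adopted after the simulated test. The share of all common cytosines at this bound was not counted for either prior. Leaving out 1 mouse left a lone mouse in its strain, assumed to vary like the others, so calls from those fits are not given. With the replicate block, gene differences were the same values (2.85 points over all cytosines, exact sign-flip p = 0.5). The numbers pair nothing in the labels, and same-numbered mice did not deviate together (correlation -0.0472 over the 317 cytosines). At 13 to 25 reads, as at Snrpn in the mixed mice, the reads limit the level.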
